A study of Saccharomyces cerevisiae with 36 samples.

Results

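The early response of budding yeast to palatinose, while fructose was still present, was measured in 12 of the 36 RNA-seq libraries of the series. These are all the libraries harvested at mid-log: 6 from cells grown in 0.1% fructose with 0.9% palatinose (fructose-palatinose) and 6 from cells grown in 0.1% fructose alone. Each medium was given to the *gal80Δ* strain and to its wild-type, the prototrophic laboratory strain FY4, with 3 biological replicates (A, B and C) of each. The deletion was made in FY4 and leaves Gal4, the activator of the galactose genes, without its inhibitor. All 4 groups were pre-cultured on pyruvate and then grown in minimal medium. Palatinose was the only difference between the media, and it was compared over both strains with strain as a covariate.

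Palatinose, or isomaltulose, is a disaccharide of glucose and fructose. Yeast imports it with α-glucoside transporters such as Mal11, and isomaltases of the Ima family cleave it in the cytoplasm. Activators of the *MAL* family, zinc-cluster proteins, respond to intracellular α-glucosides and induce the genes for transporters, maltases and isomaltases. Most of these genes lie close to chromosome ends.

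The libraries held between 6716003 and 11785148 counts on 5697 genes, with a median of 8444826.5. The *gal80Δ* libraries in fructose-palatinose were the deepest, between 10398566 and 11785148, and those of the wild-type in fructose-palatinose the shallowest, between 6716003 and 7262282. A floor of 3 counts corresponds to between 0.255 and 0.447 CPM, the count scaled to a common library total, and it covers counting error only. Reads were primed on the poly(A) tail and mark the 3′ end of a transcript, so CPM values do not grow with the length of a gene. The strains matched their labels. *GAL80* ranged from 9.76 to 12.8 CPM over the *gal80Δ* libraries and from 45.9 to 65.7 CPM over those of the wild-type. *GAL1*, a Gal4 target, ranged from 6611 to 9695 CPM over the *gal80Δ* libraries and from 19.3 to 73.3 CPM over those of the wild-type. The 73.3 CPM was replicate B in fructose-palatinose, and the other wild-type libraries had at most 24.2 CPM.

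Seen over all genes, the early response was narrow. Of 5360 genes tested, 7 were higher with palatinose (0.131%) and none was lower (0%), by edgeR's quasi-likelihood test. A gene was called where its log2 fold change exceeded 0.5 in size and its Benjamini-Hochberg adjusted p lay below 0.05. The 7 genes are the isomaltase genes *IMA5* and *IMA1*, the maltase gene *MAL12*, the hexose transporter gene *HXT8*, and *YHR210C*, *REE1* and *YJL218W*. Without adjustment, 79 genes had a p below 0.05 (36 higher and 43 lower with palatinose), which is 1.47% of those tested. With no effect at all, about 5% would be expected, so the unadjusted p-values ran high here. DESeq2 also called 7 genes, the same 7. In bulk RNA, a rise in every cell and a larger rise in some of the cells cannot be told apart.

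**Figure D1:**
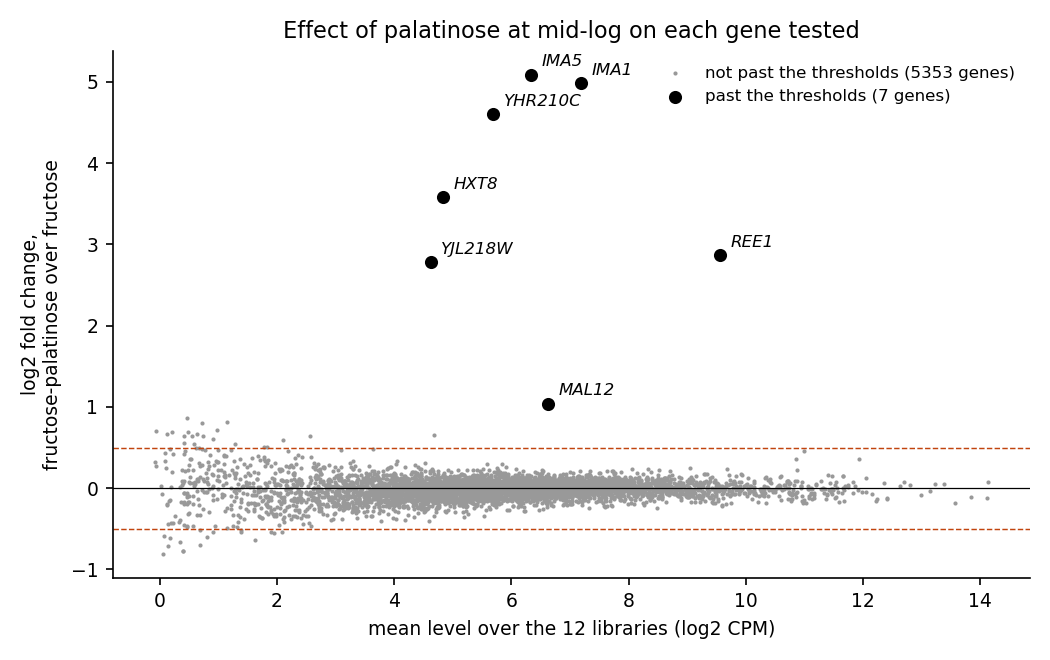
Each point is 1 of the 5360 genes tested, with its mean level over the 12 mid-log libraries in log2 CPM on the horizontal axis and its log2 fold change, fructose-palatinose over fructose, on the vertical axis. The 7 genes past the thresholds are black and named, the dashed lines mark log2 fold changes of 0.5 either way, and the other 5353 genes lie between -0.81 and 0.87.

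The isomaltases led the response. *IMA5* had between 134 and 218 CPM in the 6 fructose-palatinose libraries (median 146), against between 3.96 and 5.07 CPM in the 6 fructose libraries (median 4.58). It rose 34.04-fold (95% interval 28.5 to 40.6), a log2 fold change of 5.09 (standard error, SE, 0.12, with an edgeR adjusted p of 2.47e-12). The lowest library with palatinose was still 26.5 times the highest without. *IMA5* is the most divergent of the yeast isomaltases.

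*IMA1* encodes the main isomaltase of this family. It had between 181 and 447 CPM with palatinose (median 289), against between 6.24 and 14.3 CPM in fructose (median 7.999). Its rise was 31.7-fold (95% interval 23.7 to 42.5), a log2 fold change of 4.99 (SE 0.20, adjusted p = 8.25e-10). The libraries of *IMA1* spread more widely than those of *IMA5* within each medium, and the media did not overlap. The ratio of *IMA1* to *IMA5* counts in replicates A, B and C was 3.00, 2.11 and 2.32 in the *gal80Δ* fructose-palatinose libraries, against 2.06, 1.70 and 3.07 in fructose. In the wild-type it was 1.15, 1.31 and 1.35 with palatinose, against 1.36, 1.44 and 1.91 without. With palatinose the strains did not overlap in this ratio, and the wild-type's was lower with palatinose for each letter. These differences in the ratio were not tested.

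*MAL12* encodes a maltase, and it rose far less. Its levels were between 98.3 and 158 CPM with palatinose (median 138) and between 47.5 and 84.1 CPM in fructose (median 67.2), a 2.06-fold rise (95% interval 1.70 to 2.49). The log2 fold change of 1.04 (SE 0.13, adjusted p = 0.00102) passed the thresholds, and the lowest fructose-palatinose library was 1.17 times the highest fructose library. When tested against a log2 fold change of 0.5 rather than 0, *MAL12* no longer passed (edgeR adjusted p = 0.0599). Its mean in fructose, 64.1 ± 13.5 CPM (SD, n = 6), was above those of *IMA5* and *IMA1*.

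*HXT8* belongs to the hexose transporter family, and it rose 11.999-fold (95% interval 9.75 to 14.8). The fructose-palatinose libraries held between 44.5 and 63.3 CPM (median 52.3), against between 3.20 and 5.41 CPM in fructose (median 4.34). This is a log2 fold change of 3.58 (SE 0.14, adjusted p = 8.25e-10). *YHR210C* encodes a protein similar to aldose 1-epimerases, enzymes that interconvert the anomers of sugars. It had between 88.1 and 109 CPM with palatinose (median 99.9), against between 3.05 and 5.34 CPM in fructose (median 3.89). It rose 24.3-fold (95% interval 20.2 to 29.3), a log2 fold change of 4.60 (SE 0.13, adjusted p = 1.06e-11), with the smallest spread relative to the mean of the 7 genes in fructose-palatinose, 99.1 ± 8.93 CPM (SD, n = 6).

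*REE1* encodes a cytoplasmic protein known to affect the enolase Eno1. It was the most abundant of the 7 transcripts in both media, with between 1045 and 1446 CPM with palatinose (median 1421) and between 150.1 and 224 CPM in fructose (median 173). It rose 7.30-fold (95% interval 5.86 to 9.08), a log2 fold change of 2.87 (SE 0.15, adjusted p = 2.13e-08). *ENO1* itself had between 248 and 323 CPM with palatinose and between 259 and 447 CPM without, a log2 fold change of -0.18 (SE 0.17) that did not pass. *YJL218W* encodes a putative acetyltransferase similar to bacterial galactoside acetyltransferases. It had between 30.8 and 51.7 CPM with palatinose (median 43.3), against between 3.19 and 8.45 CPM in fructose (median 6.64), a 6.90-fold rise (95% interval 5.55 to 8.57) and a log2 fold change of 2.79 (SE 0.15, adjusted p = 2.49e-08).

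**Figure D2:**
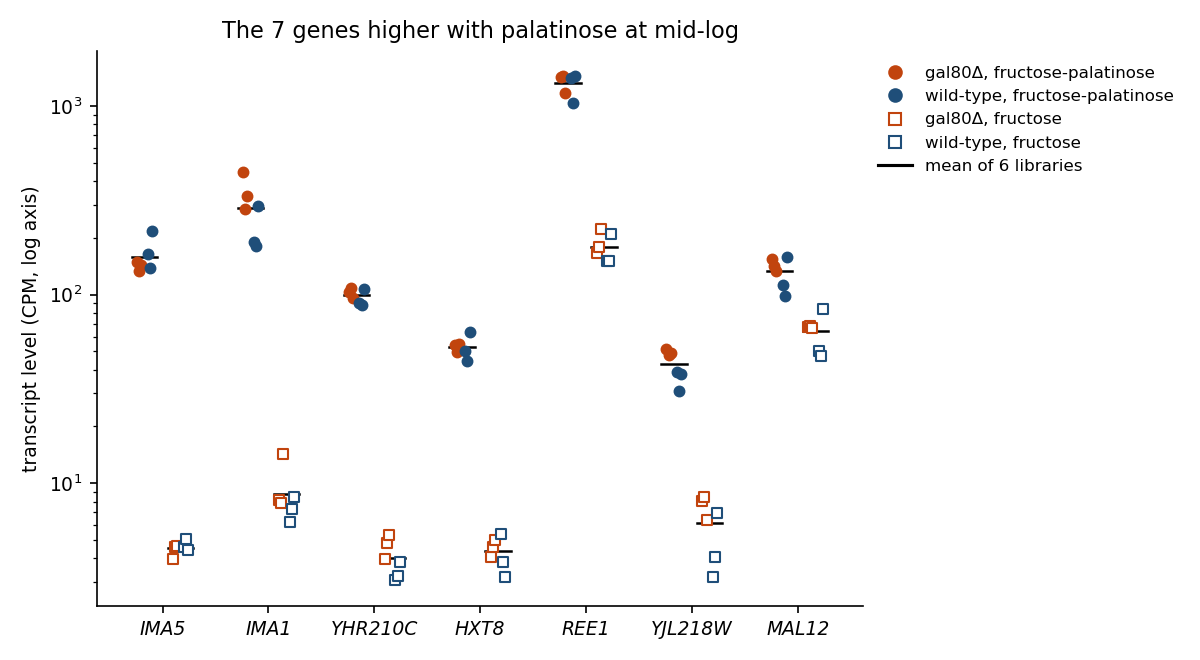
The level of each of the 7 genes in each of the 12 mid-log libraries, in CPM on a log axis. Filled circles are fructose-palatinose and open squares fructose libraries, orange is the *gal80Δ* strain, blue is the wild-type, and each bar is the mean of 6 libraries. For every gene the 6 fructose-palatinose libraries lie above the 6 fructose libraries, with the smallest gap for *MAL12*.

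In fructose, 5 of these transcripts were rare. Ranked by mean CPM among the 5360 genes, *YHR210C*, *HXT8*, *IMA5*, *YJL218W* and *IMA1* stood at 5045, 5011, 4994, 4896 and 4751. With palatinose they stood at 1680, 2621, 1113, 2966 and 630. *REE1* stood at 141 with palatinose and at 983 in fructose, and *MAL12* at 1283 and 2322. Together the 7 genes took 0.210% ± 0.0280 of all counts (SD, n = 6) in fructose-palatinose, between 0.163% and 0.240%, and 0.0272% ± 0.00455 in fructose, between 0.0221% and 0.0327%. *REE1* made up 63.2% ± 3.48 of these counts with palatinose and 66.2% ± 2.09 without. Without *REE1*, the shares were 0.0774% ± 0.0142 and 0.00919% ± 0.00164.

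All 6 fructose-palatinose libraries exceeded all 6 fructose libraries in CPM for 8 of the 5360 genes (0.149%), and all 6 were below for 1 (0.0187%). The 8 genes are the 7 described and *STS1*, which did not pass the test.

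No other gene of the *MAL* regulon passed. The list of *MAL* and *IMA* genes holds 14 members, of which 10 had enough counts to be tested. Of these 10, 3 rose (*IMA5*, *IMA1* and *MAL12*), beside 0.131% of all genes tested, and none fell. The median log2 fold change of the 10 was 0.09, beside -0.01 for all genes tested. The 7 members that did not pass had log2 fold changes between 0.00 and 0.12, and their 95% intervals all lay between -0.43 and 0.47, short of the threshold of 0.5 either way.

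Of the transporters, *MAL11*, which imports α-glucosides including palatinose, had between 7.18 and 10.9 CPM with palatinose (median 7.99) and between 4.57 and 9.81 CPM in fructose (median 7.94). The media overlapped, and the log2 fold change was 0.10 (95% interval -0.26 to 0.47). These values rest on between 37 and 113 counts in each library. *MAL31*, the maltose permease gene on chromosome II, had between 40.2 and 56.6 CPM with palatinose and between 38.4 and 51.0 CPM without, a log2 fold change of 0.12 (95% interval -0.09 to 0.33). The transporter genes *MPH2* and *MPH3* had at most 6 and 4 counts in any library and were not tested.

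The activator genes also overlapped between the media. *MAL33* had between 68.9 and 98.7 CPM with palatinose and between 58.5 and 105 CPM without, a log2 fold change of 0.03 (95% interval -0.22 to 0.28). *ZNF1*, a zinc-cluster activator of respiratory genes and of maltose use, had between 22.5 and 38.8 CPM and between 20.4 and 33.5 CPM, a log2 fold change of 0.08 (95% interval -0.18 to 0.33). *MAL13*, the activator gene between *IMA1* and *MAL11*, had between 5.51 and 9.30 CPM and between 4.30 and 8.98 CPM, a log2 fold change of 0.04 (95% interval -0.32 to 0.40). It is the neighbour of *IMA1*.

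The close copies of *IMA1* and *MAL12* did not pass. *IMA2*, whose coding sequence is 89.4% identical to that of *IMA1*, had between 6.40 and 11.8 CPM with palatinose and between 6.24 and 13.9 CPM in fructose, a log2 fold change of 0.00 (95% interval -0.43 to 0.43). *MAL32*, 99.5% identical to *MAL12*, had between 15.2 and 21.7 CPM and between 16.2 and 23.2 CPM, a log2 fold change of 0.05 (95% interval -0.19 to 0.30). Over the last 300 bases of the counted intervals, where 3′ reads fall, the identities in a global alignment were 56.7% for *IMA1* with *IMA2* and 88.3% for *MAL12* with *MAL32*. How reads matching both copies were counted is not given in the sources used here, so the values of *MAL12* and *MAL32* may each hold reads of the other. *IMA3* and *IMA4*, which are identical in coding sequence, had 0 counts in every library and at most 12 counts, and were not tested. They are also 100% identical over the last 300 bases, so their low counts may reflect how shared reads were treated.

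**Figure D3:**
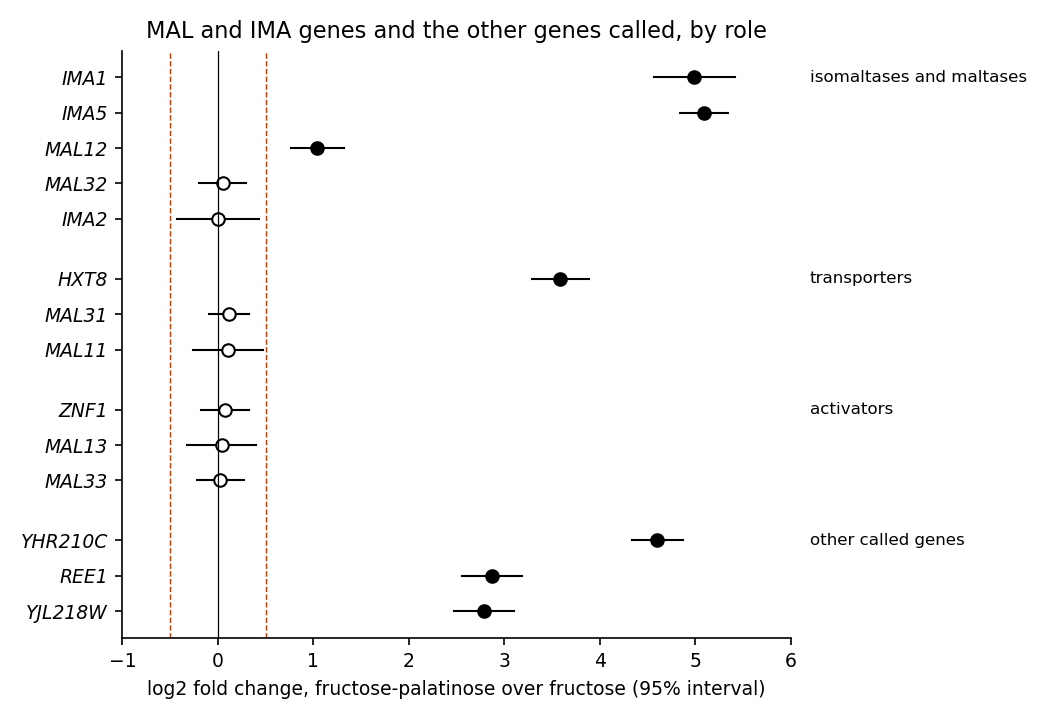
The log2 fold change, fructose-palatinose over fructose, of the tested *MAL* and *IMA* genes and of the other 4 genes past the thresholds, grouped by role. Lines are 95% intervals, filled circles passed the thresholds and open circles did not, and dashed lines mark 0.5 either way. *IMA1* and *IMA5* lie near 5, *MAL12* near 1, and the 7 open circles between 0.00 and 0.12.

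In the genome, the 7 genes occupy 3 places, each near a chromosome end. Coordinates are those of the counted intervals on the R64 reference. *YJL218W* (chromosome X, 21866 to 22711, plus strand), *REE1* (23032 to 23911, plus), *IMA5* (24216 to 26111, minus) and *HXT8* (26862 to 29721, plus) are neighbours on the left arm of chromosome X and span 7856 bp. *REE1* and *IMA5* converge, with 304 bp between their 3′ ends, and *IMA5* and *HXT8* diverge, with 750 bp between them. *IMA1* (chromosome VII, 1066370 to 1069020, minus) and *MAL12* (1076574 to 1078715, plus) lie on the right arm of chromosome VII with *MAL13* and *MAL11* between them. *YHR210C* (chromosome VIII, 520305 to 521756, minus) stands alone on the right arm of chromosome VIII. The distance to the nearer chromosome end was between 12225 bp, for *MAL12*, and 40887 bp, for *YHR210C*. Within this largest distance lie 376 of the genes tested (7.01%), and 369 of them did not pass.

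The genes around these places, named after their values were seen, did not pass. On chromosome X, *HXT9* and the doubtful gene *YJL215C*, which lies over the divergent region of *IMA5* and *HXT8*, had at most 7 and 13 counts in any library. On the other side of *HXT8*, *YJL213W* had a log2 fold change of 0.60 (SE 0.21) with an unadjusted p of 0.0143 and an adjusted p of 1.00. It had between 6.06 and 6.91 CPM with palatinose and between 1.82 and 4.17 CPM without in the *gal80Δ* strain, and between 3.18 and 3.72 CPM and between 2.17 and 3.47 CPM in the wild-type. On chromosome VIII, *CRG1* shares 422 bp with *YHR210C* on the opposite strand at their 3′ ends, and its log2 fold change was 0.07 (SE 0.12), with between 62 and 162 counts in each library.

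**Figure D4:**
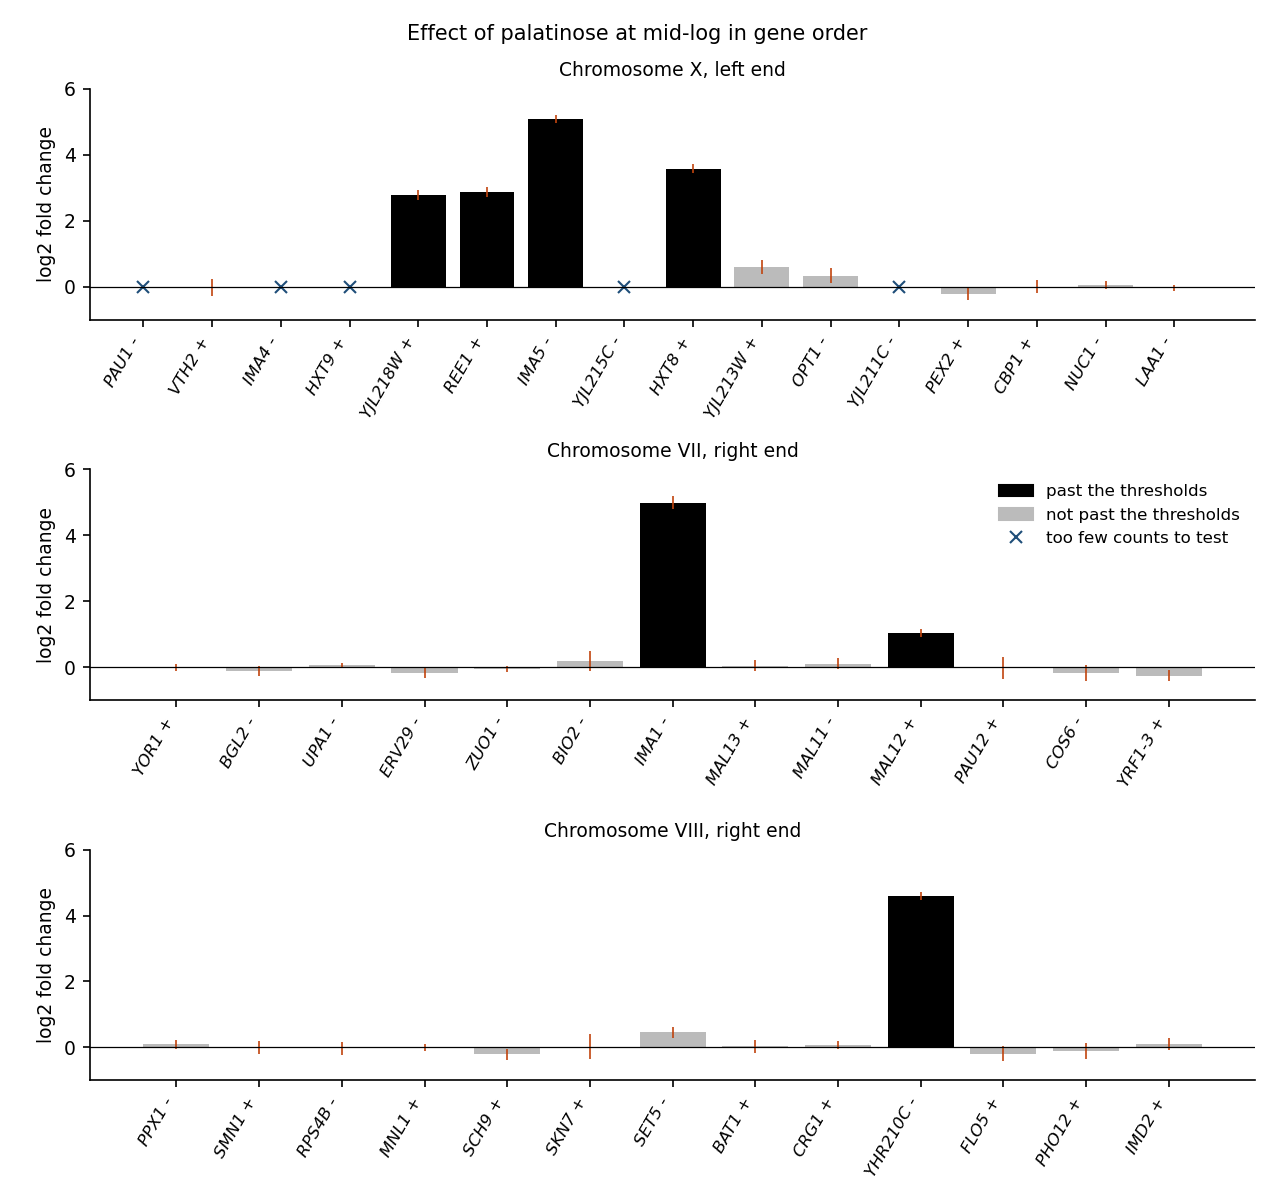
The log2 fold change with palatinose of the genes in their order along the chromosome around the 3 places, with strands as plus or minus and standard errors as lines. Black bars passed the thresholds, grey bars did not, and crosses mark genes with too few counts to test. On chromosome X the 4 black bars are neighbours apart from *YJL215C*, on chromosome VII *MAL13* and *MAL11* lie between *IMA1* and *MAL12* near 0, and on chromosome VIII *YHR210C* stands alone.

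Sequences upstream of the start codons were searched for the pattern that activators of the *MAL* family are known to bind in budding yeasts: CGG or CGC, then 9 bases of any kind, then CGG or CGC, on either strand, with overlapping matches allowed. Within 500 bases, 4 of the 7 genes that rose held a match (*IMA5*, *HXT8*, *YHR210C* and *MAL12*), and *IMA1*, *REE1* and *YJL218W* held none. Of the 11 *MAL* and *IMA* genes that did not rise or were not tested, 6 held a match, among them *MAL11*, *MAL31*, *MAL32* and *MAL33*. Of all 6008 nuclear coding sequences in the annotation, 17.5% did. The matches of *MAL12* stand at -411, -312 and -311 from the start codon, the same positions as those of *MAL32*, which did not rise. *YHR210C* has 3 matches, at -300, -288 and -271, and 1.30% of all coding sequences have 3 or more. A match is a description of the sequence and not of binding. The matches of the genes that rose are shown on the gene's coding strand, 5′ to 3′, from the R64 genome of RefSeq, to set the raised genes' upstream regions side by side. Capitals mark the triplets of each match, which read as CCG or GCG where the match is on the opposite strand.
*IMA5* (chrX:26207-26235, minus strand): accgctaCGGtaattgataCGGttttgag
*HXT8* (chrX:26609-26637, plus strand): aattatcCCGagaataattCCGcgaccgg
*YHR210C* (chrVIII:521974-522057, minus strand): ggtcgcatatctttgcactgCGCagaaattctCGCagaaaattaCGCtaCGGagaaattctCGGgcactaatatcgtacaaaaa
*MAL12*, farther match (chrVII:1076168-1076222, plus strand): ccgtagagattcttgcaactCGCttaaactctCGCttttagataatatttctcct
*MAL12*, nearer matches (chrVII:1076267-1076322, plus strand): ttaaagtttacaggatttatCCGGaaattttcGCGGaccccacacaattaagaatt

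The *IMA5* and *HXT8* matches both lie in the region from which these genes diverge, and those of *MAL12* in the region it shares with *MAL11*. The matches of *MAL11*, at -489, -488 and -389, are the *MAL12* sites read from the other side. The same sites thus count for a gene that rose and for a gene that did not. The nearest match stood at -142 for *IMA5*, which rose 34.04-fold, and at -311 for *MAL12*, which rose 2.06-fold. *IMA1*, which rose 31.7-fold, had no match within 1000 bases either, and nor did *YJL218W*, whereas *REE1* had a match at -697.

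Whether the strains responded alike was tested as an interaction, which subtracts the wild-type's log2 fold change from that of *gal80Δ* cells. No gene of 5360 passed (0%) in edgeR's quasi-likelihood test or in DESeq2, and 35 had an unadjusted p below 0.05 in edgeR. That is also below the 5% expected with no effect, so the lack of a call does not show that the strains responded alike. Among the 7 genes the interactions ranged from -0.41 for *YHR210C* (95% interval -0.90 to 0.08) to 0.16 for *IMA1* (95% interval -0.64 to 0.96). That of *IMA5* was -0.24 (95% interval -0.73 to 0.24), of *YJL218W* -0.25 (95% interval -0.88 to 0.38), of *HXT8* -0.19 (95% interval -0.80 to 0.42), of *REE1* -0.16 (95% interval -0.78 to 0.45) and of *MAL12* 0.03 (95% interval -0.55 to 0.61). These libraries do not exclude a difference between the strains of a size within these intervals.

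The strains were also fitted apart, so that no library was shared. In the *gal80Δ* strain 7 of 5338 genes were called (0.131%), and in the wild-type 6 of 5281 (0.114%), all higher with palatinose. The 6 genes of the wild-type were all among the 7 of the mutant. *IMA5* had 149, 134 and 143 CPM in the *gal80Δ* fructose-palatinose libraries, against 3.96, 4.59 and 4.66 CPM in fructose, a log2 fold change of 4.97 (SE 0.16). In the wild-type it had 165, 139 and 218 CPM, against 4.58, 5.07 and 4.44 CPM, a log2 fold change of 5.19 (SE 0.19). In both strains the libraries with palatinose were far above those without.

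*MAL12* was the gene that differed in call. It had 155, 142 and 134 CPM in the *gal80Δ* fructose-palatinose libraries, against 67.5, 68.3 and 66.9 CPM in fructose, a log2 fold change of 1.06 (SE 0.12, adjusted p = 0.00764). In the wild-type it had 112, 98.3 and 158 CPM, against 50.1, 47.5 and 84.1 CPM, a log2 fold change of 1.01 (SE 0.24, adjusted p = 1.00). Here replicate C had the highest level in each medium, and the media still did not overlap. With the replicate letter as a block, *MAL12* passed in the wild-type with a log2 fold change of 1.03 (SE 0.13, edgeR adjusted p = 0.00195), and 7 genes were called. The wild-type letters were taken as paired, and the pairing is uncertain. A replicate B library correlated better with replicate A of the other medium (0.501) than with its own letter (0.116). The same block in the *gal80Δ* strain, whose letters did not pair, left *MAL12* short of the threshold (log2 fold change 1.06, edgeR adjusted p = 0.0798).

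Genes of other functions were described by list. Of 33 lists of genes, 31 held no gene that passed in either direction, over 712 genes tested, and their median log2 fold changes lay between -0.17 and 0.06. With 0.131% of all genes called, a count of 0 in a list of this size is near the background and is no result about that list, so the lists are given by their medians and ranges. Among the hexose transporters and sensors, 1 of 11 tested rose (*HXT8*), none fell, and the other 10 had log2 fold changes between -0.27 and 0.70. The widest of their 95% intervals reached 1.69, so for some of these genes a 2-fold rise was within the error.

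In central carbon metabolism, the 18 genes of glycolysis and fermentation had a median log2 fold change of -0.10 and ranged from -0.22 to 0.15. The 17 genes of the TCA cycle had a median of -0.08 (range -0.27 to 0.06), and the 31 of the respiratory chain and ATP synthase one of -0.01 (range -0.06 to 0.18). The 20 genes of gluconeogenesis and the glyoxylate cycle, which glucose represses, had a median of 0.03 (range -0.18 to 0.22). The 18 genes of glucose repression, such as those for hexokinases, the Snf1 complex and the Mig repressors, ranged from -0.34 to 0.66 (median -0.06), with none past the thresholds. The highest of them, *MIG2*, was called when replicate letter within strain was added as a block (log2 fold change 0.67, SE 0.10, edgeR adjusted p = 0.0104). That block also uses the *gal80Δ* letters, which did not pair. The 11 *GAL* genes and Gal4 targets ranged from -0.28 to 0.46 (median -0.06).

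Genes of growth and stress were summarised in the same way. The 136 genes for cytosolic ribosomal proteins lay between -0.18 and 0.24 (median -0.01), and 131 of them had a 95% interval within a 2-fold change either way. The 54 tested genes of ribosome assembly lay between -0.04 and 0.22 (median 0.05), and the 21 heat shock chaperone genes between -0.27 and 0.69 (median -0.07). The 17 genes of trehalose and glycogen metabolism had the lowest median of the lists, -0.17, and all lay between -0.39 and -0.07, with 0 at an unadjusted p below 0.05. As the called genes lie near chromosome ends, the *COS*, *PAU* and *AAD* families of these regions were also examined, and their 17 tested members had a median of -0.06 (range -0.81 to 0.32).

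The precision bounds what could have been missed. The median standard error of the log2 fold change was 0.12, and 5185 of the 5353 genes that did not pass (96.9%) had a 95% interval within a 2-fold change either way. Beyond a log2 fold change of 0.5 lay 39 genes that did not pass, 22 higher and 17 lower.

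The densities of the cultures at harvest were also compared. The optical density (OD) was 0.29, 0.29 and 0.29 in the *gal80Δ* cultures with palatinose, against 0.30, 0.30 and 0.29 in fructose, and 0.29, 0.26 and 0.29 in the wild-type cultures with palatinose, against 0.30, 0.27 and 0.35. The means were 0.285 ± 0.0122 (SD, n = 6) and 0.302 ± 0.0264, and they differed by -0.0167 (p = 0.300, two-sided exact permutation test within strains, 400 relabellings). By letter, the OD was lower with palatinose in 5 of 6 pairs of cultures and equal in 1, though the *gal80Δ* letters were not taken as paired. With 1 culture left out, the p of this permutation test ran from 0.02 to 0.56. The smallest came without replicate B of the wild-type in fructose, where the difference was -0.023. The part of OD in the gene levels was not tested.

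The early response was set beside those 10 and 16 hours later (+10h and +16h) in a fit of all 36 libraries, which tested the change in the effect of palatinose since mid-log over 5479 genes. In the wild-type the effect changed for 170 genes by +10h (3.1%) and for 102 by +16h (1.86%). At +10h the change was upward for 96 and downward for 74 genes, and when scaled by library size only it was upward for 69 and downward for 95. In the *gal80Δ* strain it changed for 1 gene by +10h (0.0183%) and for 3 by +16h (0.0548%). The wild-type's counts moved with single libraries. That at +10h was 109, 113 and 274 without replicates A, B and C in fructose at mid-log, 111 and 319 without B and C in fructose at +10h, and 105 and 91 without B and C in fructose-palatinose at +10h. That at +16h was 63 without C in fructose-palatinose at +16h. In the *gal80Δ* strain the count at +10h was 0 without A or B in fructose at mid-log or +10h, without B in fructose-palatinose at mid-log, or without A or B in fructose-palatinose at +10h. The comparisons share their mid-log libraries.

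In the *gal80Δ* strain, of the 7 genes, the effect passed as smaller for 1 at +10h and for 3 at +16h, and as larger for 0 at either time. The effect on *YHR210C*, 4.41 on the log2 scale at mid-log, was 2.59 at +10h, a change of -1.82 (SE 0.32, adjusted p = 0.0180), and 2.29 at +16h, a change of -2.12 (SE 0.32, adjusted p = 5.6e-04). *YJL218W* had an effect of 0.91 at +16h, against 2.67 at mid-log, a change of -1.76 (adjusted p = 5.4e-04), and *HXT8* one of 2.09, against 3.49, a change of -1.40 (adjusted p = 0.0220). The effect on *IMA5* changed by -1.21 at +16h (SE 0.25, edgeR adjusted p = 0.0505), which did not pass. The mutant's *YHR210C* fell to 17.5 ± 2.47 CPM at +10h in fructose-palatinose, against 103 ± 6.40 CPM at mid-log (SD, n = 3).

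In the wild-type the effect grew for 6 of the 7 genes by +10h and for all 7 by +16h, and passed as smaller for 0. *MAL12*, the weakest at mid-log, grew by 3.07 at +10h (SE 0.22, adjusted p = 5.12e-11), to an effect of 4.10. *HXT8* grew by 0.91 at +10h (SE 0.27, adjusted p = 0.0549), which did not pass, and by 1.176 at +16h (adjusted p = 0.0128). Of the 8 other *MAL* and *IMA* genes in this fit, 1 grew at +10h, *MAL11*, by 1.52 (adjusted p = 0.00183), and 3 at +16h, *MAL11*, *MAL32* and *ZNF1*. None changed in the *gal80Δ* strain. Whether the strains differed in these changes was not tested.

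**Figure D5:**
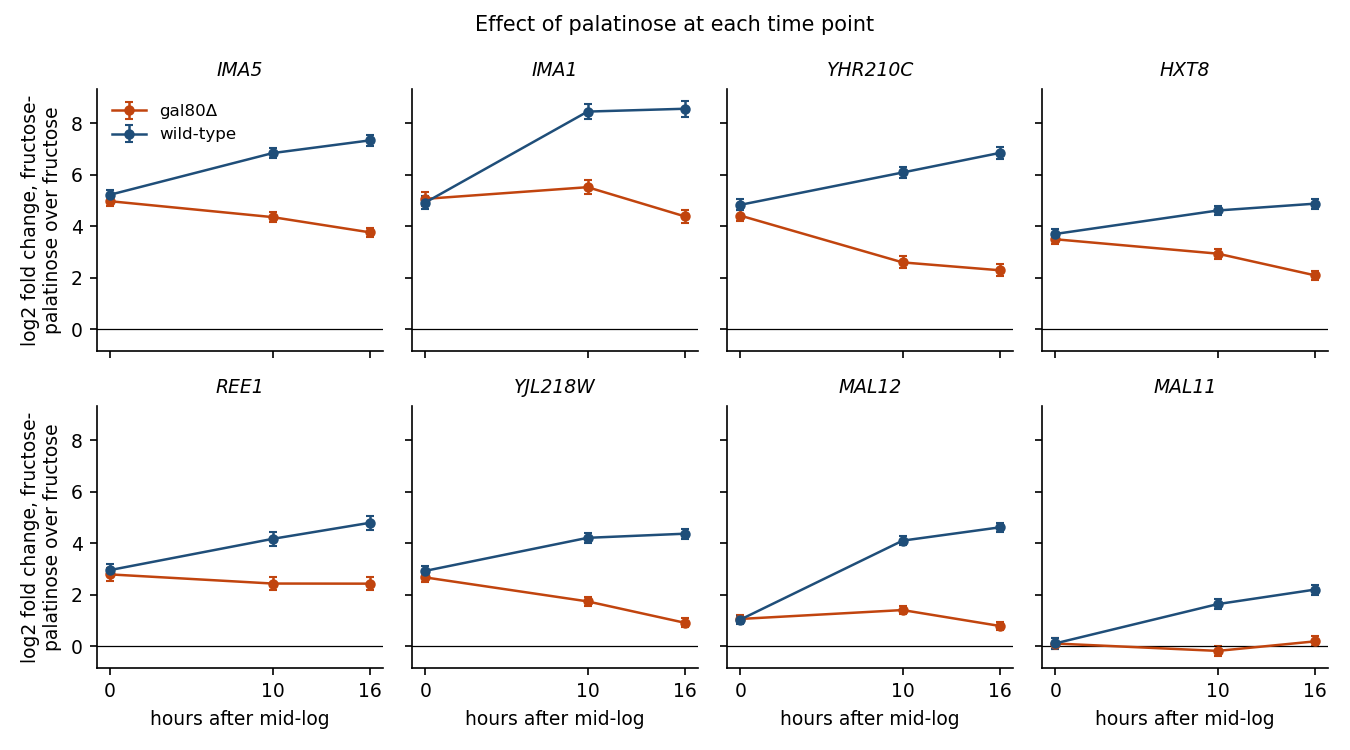
The effect of palatinose (log2 fold change, fructose-palatinose over fructose, ± standard error, 3 libraries in each group) at mid-log (0), 10 and 16 hours after it, for the 7 genes and *MAL11*, in the *gal80Δ* strain (orange) and the wild-type (blue). *IMA5* is at 4.97 in the *gal80Δ* strain and 5.22 in the wild-type at mid-log, and at 3.76 and 7.33 at +16h. Whether the strains differed in these changes was not tested.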

How the data were processed

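RNA was measured with QuantSeq 3′ libraries. The submitters' processing notes name FastQC 0.11.9, cutadapt 1.18, HISAT2 2.1.0, SAMtools 1.11, bedtools 2.30.0 and featureCounts (Subread 2.0.0) on build R64. The authors deposited raw counts per gene and library, after redrawing the intervals of genes such as *IMA1*, *MAL11*, *MAL12*, *MAL32* and *HXT8*, and the OD of each culture at harvest, another kind of value. A column of CPM (1 column of values per sample) was not used. Counting strand and multi-mapping settings are not given in the sources used here. All 5551 genes with a RefSeq coding sequence held it whole in their interval.

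Counts were fitted in R 4.3.3 with edgeR 4.0.16 (filterByExpr, TMM, quasi-likelihood, Benjamini-Hochberg). The strain and medium model gave a common dispersion of 0.0345. DESeq2 1.42.0, library size alone, other filters and folds, blocks and leaving out each library were alternatives. Tables used Python 3.11.15, pandas 2.3.3 and Biopython 1.88. The procedure was tested on simulated data. Replicate letters come from the labels. Deviations from group means of same-lettered wild-type libraries had correlations of 0.547, 0.116 and 0.686, and were taken as paired. For replicate B the correlation with replicate A was higher, at 0.501. Those of the *gal80Δ* strain, 0.256, -0.317 and -0.290, were not.

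Members and lists were chosen with earlier results of these data known. Named were the *MAL* and *IMA* genes, all genes called (at most 15 each way), called list members, and *GAL80* and *GAL1*. *ENO1*, *STS1*, *MIG2*, *YOR062C*, *GWT1* and the neighbours were chosen after their values were seen.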

Additional observations from a re-analysis of the deposited data

Results flagged for a closer look

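A library lay far from the other 5 of its medium in 3 of 30 groups looked at, and chance alone sets a sample apart in about 1 group of 20. *IMA5* had 218 CPM in replicate C of the wild-type in fructose-palatinose, against 165 CPM in the next library. *IMA1* had 14.3 CPM in replicate C of the *gal80Δ* strain in fructose, against 8.47 CPM in the next. The harvest OD was 0.26 in replicate B of the wild-type in fructose-palatinose, against 0.29 in all the others.

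The effect of palatinose differed between mid-log and a later time, by edgeR's test of that difference, in 21 cases. The genes looked at were the 7 and the 8 other *MAL* and *IMA* genes of that fit, in each strain at each later time. Over all 5479 genes, the effect changed for 3.1% (+10h) and 1.86% (+16h) in the wild-type and for 0.0183% and 0.0548% in *gal80Δ* cells. In the *gal80Δ* strain it was smaller by -1.82 at +10h and -2.12 at +16h for *YHR210C*, and at +16h by -1.40 for *HXT8* and -1.76 for *YJL218W*. In the wild-type it was larger at +10h and +16h by 1.62 and 2.11 for *IMA5*, 3.53 and 3.64 for *IMA1*, 1.26 and 2.02 for *YHR210C*, 1.21 and 1.83 for *REE1*, 1.28 and 1.44 for *YJL218W*, 3.07 and 3.58 for *MAL12*, and 1.52 and 2.09 for *MAL11*. At +16h alone it was larger by 1.176 for *HXT8*, 0.98 for *MAL32* and 0.91 for *ZNF1*. No explanation was tested.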

How the results depend on the processing

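The 7 genes were called in each of the 12 fits that left out a library and under 10 of 11 other alternatives. The exception is the test against a log2 fold change of 0.5, which called 6 and lost *MAL12* (adjusted p = 0.0599). No interaction was called under any of 22 alternatives. Among all these alternatives, those with no minimum log2 fold change or a minimum of 1 only moved the cutoff of the main fit. None of the 7 other tested *MAL* and *IMA* genes was called in 161 values, of which 13 had the opposite sign. These were *IMA2* at -0.00982 in the fit of all 36 libraries, and, leaving out a library, *IMA2* (-0.0933 to 0.19), *MAL13* (-0.0370 to 0.17) and *MAL33* (-0.0414 to 0.13). The difference in OD ran from -0.023 to -0.007 with a culture left out. With a library left out, the wild-type's count of changed effects ran from 91 to 319 at +10h and from 63 to 98 at +16h, and the mutant's from 0 to 1 at +10h. Under the 3 other alternatives, the wild-type's ran from 164 to 227 and from 81 to 126. The cause was not tested. The median over all genes tested moved by less than 0.1 on the log2 scale when library size replaced TMM.

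With the replicate block of letter within strain, 8 genes were called, the same 7 and *MIG2* (log2 fold change 0.67, adjusted p = 0.0104). With letter alone, 7 were. In the *gal80Δ* strain the block called 6 genes and *MAL12* had an adjusted p of 0.0798. Over both strains, 2 of 6 libraries correlated best with their own letter. In the wild-type alone, the block added *MAL12* (edgeR adjusted p = 0.00195). The block changed no other call at mid-log. Depth limits *MAL11*, *MAL13* and the genes with 12 counts or fewer, and for *IMA3* and *IMA4* the treatment of shared reads may do so too.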

Other observations

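The values of 4 genes that did not pass are given here, chosen after they were seen, and each had an adjusted p of 1.00 in edgeR's quasi-likelihood test. *YOR062C* had the smallest unadjusted p of the genes that did not pass, 0.00344, with between 11.6 and 15.4 CPM in fructose-palatinose and between 7.49 and 14.04 CPM in fructose, a log2 fold change of 0.48 (standard error 0.14). *MIG2*, which encodes a repressor of glucose-repressed genes, had between 15.3 and 69.0 CPM with palatinose and between 7.84 and 43.8 CPM without, a log2 fold change of 0.66 (standard error 0.20, unadjusted p = 0.00605). It was higher with palatinose in 6 of 6 same-lettered pairs, and with letter within strain as a block it was called (adjusted p = 0.0104 in edgeR). The *gal80Δ* letters were not taken as paired, and any pairing of those libraries would give the same count. Each *gal80Δ* library had at least 15.3 CPM with palatinose and at most 13.7 CPM without. How many of all genes tested would show the same was not counted. Neither the pairs nor this separation is therefore a result about *MIG2*.

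*STS1*, which helps to bring proteasomes to the nucleus, had between 41.1 and 52.3 CPM with palatinose and between 33.2 and 40.8 CPM without, so that the media did not overlap, with a log2 fold change of 0.22 (standard error 0.09). *GWT1*, a gene of GPI anchor synthesis, had between 25.2 and 28.7 CPM with palatinose and between 29.2 and 35.9 CPM without, a log2 fold change of -0.27 (standard error 0.10), and was the 1 gene whose fructose-palatinose libraries all lay below.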
